A study of Mus musculus with 12 samples.

Results

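The regions described here are stretches of open chromatin that were called in every library of alveolar type II (AT2) cells from lungs carrying 4T1 tumour cells and in no library from lungs carrying CT26 tumour cells. Peaks of all 12 libraries on the 19 autosomes and X were merged where they overlapped by at least 1 bp, and a merged region counted as held by each library with a peak in it. The members were chosen by the presence or absence of peaks in the 12 lists. Of 83727 merged regions, 250 met the rule (0.299%), which is 0.543% of the 46053 regions held by all 6 4T1 libraries. They are called 4T1-only regions below. The rule is itself the comparison of 4T1 with CT26, so presence or absence in either model is a description here and was not tested.

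AT2 cells are alveolar epithelial cells that make surfactant, and 4T1 (mammary carcinoma) and CT26 (colon carcinoma) are tumour lines from the BALB/c mouse. The 4 groups were AT2 cells sorted from the metastatic niche and from distal lung of BALB/c mice (6 to 8 weeks old) on day 7 after 800000 labelling 4T1 cells were injected into the tail vein, and from the same sites after 800000 labelling CT26 cells. The label made by the tumour cells is not named in the sources used here. Each group had 3 independent samples, each pooled from 5 lungs, and 50000 sorted cells per sample went into Omni-ATAC-seq, which reads accessible DNA from where the Tn5 transposase inserts. The p-values below measure the spread between these pooled samples. All mice carried tumour cells, so no group is a tumour-free control, and the labels give no batch or date that would separate the 2 models from the day on which they were processed.

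Open chromatin marks promoters at gene starts and enhancers, which lie inside genes and between them and bind transcription factors. Promoters tend to be open in many cell types and states, whereas enhancers differ more between them. A broad peak list gives the places where the cut density passed a cut-off, so a place without a peak can be closed or can lie just under that cut-off.

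The deposited lists held 56330 to 58237 peaks in 4T1 distal, 63722 to 66911 in 4T1 niche, 42067 to 50093 in CT26 distal and 51005 to 55529 in CT26 niche libraries, and every 4T1 list was longer than every CT26 list. The weakest peak of a list had a -log10 p of 2.77 to 2.90 in 4T1 and of 2.84 to 3.02 in CT26. The lists hold no reads, so sequencing depth is unknown here, and fewer reads and less open chromatin cannot be told apart. All 16 AT2 marker genes checked (Sftpa1, Sftpb, Sftpc, Abca3, Lamp3, Nkx2-1 and others) had a region held by all 12 libraries within 1 kb of the gene. So did all 13 alveolar type I genes and 13 transitional alveolar genes, 3 of 15 neutrophil, 6 of 18 macrophage and monocyte, 2 of 13 fibroblast, 8 of 13 endothelial, 7 of 15 lymphoid, 5 of 13 mammary, 7 of 12 intestinal and 6 of 13 airway genes. No peak of any library lay within 1 kb of 7 neutrophil, 10 macrophage and monocyte, 5 fibroblast, 3 endothelial, 6 lymphoid, 5 mammary, 2 intestinal and 3 airway genes. Among these were S100a8, S100a9, Ly6g, Adgre1, Csf1r, Marco, Cdh5, Col3a1, Csn2 and Fabp1. Other genes of the same lists had a region held by all 12 libraries, among them Mmp9, Cd68, Spi1, Col1a1, Pecam1, Kdr, Flt1, Cd4, Pax5, Esr1 and Cdx2.

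Sequence was used for promoters and microRNAs only. Of 241 regions set against RefSeq start sites, 5 overlapped a promoter window. The start sites used are incomplete on at least chromosome 14, so more could overlap. The 3 that belong to protein-coding genes are shown because there a 4T1-only region covers an annotated start site of such a gene. The other windows belong to Gm gene models and are not shown. The Dlg1 start (31695548) is an internal one, as the gene begins at 31663443. The Rab17 region also lay inside its gene and over 1 kb from the gene's ends. Rab17 is an epithelial small GTPase of membrane traffic, Dlg1 a scaffold protein of cell polarity, and Arhgef6 an exchange factor for Rac and Cdc42. The 250 bases before each start are given 5′ to 3′ on the strand of the gene (RefSeq, GRCm38.p6), and all 250 lay inside the 4T1-only region in each case. Capitals mark matches to the motifs searched.
Rab17, chr1:90967668-90967917, minus strand: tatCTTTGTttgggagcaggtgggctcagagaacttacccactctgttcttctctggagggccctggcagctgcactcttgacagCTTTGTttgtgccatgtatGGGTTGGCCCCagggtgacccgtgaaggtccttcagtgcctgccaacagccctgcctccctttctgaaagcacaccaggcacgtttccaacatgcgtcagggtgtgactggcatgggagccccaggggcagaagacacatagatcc
Dlg1, chr16:31695298-31695547, plus strand: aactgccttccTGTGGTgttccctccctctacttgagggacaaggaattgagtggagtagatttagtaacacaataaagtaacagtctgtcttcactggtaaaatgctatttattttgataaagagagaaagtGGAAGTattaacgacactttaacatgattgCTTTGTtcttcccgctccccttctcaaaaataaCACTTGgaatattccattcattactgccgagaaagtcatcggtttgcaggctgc
Arhgef6, chrX:57338730-57338979, minus strand: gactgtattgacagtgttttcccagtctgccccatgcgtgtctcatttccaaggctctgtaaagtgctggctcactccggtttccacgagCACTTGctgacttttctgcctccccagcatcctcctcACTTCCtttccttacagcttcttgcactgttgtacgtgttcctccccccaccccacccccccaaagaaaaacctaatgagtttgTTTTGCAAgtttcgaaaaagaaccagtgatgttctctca

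The motifs were searched on both strands: for AP-1 TGANTCA, for bZIP factors of the C/EBP family TTGCNNAA, for ETS factors GGAAGT, for TEAD factors GGAATG, for NKX2-1 CAAGTG, for FOXA factors TGTTTAC, for zinc fingers of the GATA family AGATAA, for STAT factors TTCNNNGAA, for KLF factors GGGCGTG, for RUNX factors TGTGGT, for SOX factors ACAAAG, and the longer NF-kB, glucocorticoid receptor, IRF and CTCF motifs. Rab17 held 2 SOX matches, which 16.5% of 32851 promoter windows hold at least once, and 2 NF-kB matches that overlap each other (45.8% of windows). Dlg1 held single ETS (19.7% of windows), NKX2-1 (11.6%), RUNX (14.05%) and SOX matches. Arhgef6 held single ETS, NKX2-1 and C/EBP (9.56%) matches. A match is a run of letters, not a shown binding site. The Rab17 region had a fold enrichment of 2.88, 3.17 and 2.65 in the distal and 3.60, 2.44 and 2.85 in the niche libraries (replicates 1 to 3 of each, the authors' value over the background of the same library). The Dlg1 region had 2.93, 2.95 and 4.05 in the distal and 3.36, 3.56 and 3.55 in the niche libraries. The Arhgef6 region was the most even of the 3, with 2.92, 3.14 and 3.01 against 2.87, 3.05 and 2.97. Its peaks were also among the weakest of every 4T1 list, with a -log10 p of 3.30 to 3.76. By -log10 p, counted from the weakest peak of a list, it lay at percentiles of 1.10 to 5.04. The Dlg1 region lay at 1.37 to 22.0 and the Rab17 region at 12.9 to 53.6. By their lowest percentile, Rab17, Dlg1 and Arhgef6 had ranks 72, 225 and 232 of 250. Distal and niche fold enrichments overlapped at all 3. The length under peaks, after centring, was lower in all niche than in all distal libraries at Rab17. At Dlg1 it was higher in all niche libraries, and at Arhgef6 the sites overlapped. Neither difference passed (log2 difference -0.32 ± 0.16 SE and 1.01 ± 0.35 SE, limma adjusted p = 0.675 and 0.586).

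A further region is shown with its microRNAs because it lay at rank 11 of 250 and 485508 bp from the nearest named protein-coding gene, Usp25. The region (chromosome 16, 77602291 to 77603042) lay 2553 bp from the nearest mature microRNA of the Mirlet7c-1 hairpin and 3294 bp from the nearest of Mir99a. Let-7 microRNAs are known for their part in differentiation, and miR-99a belongs to the miR-99/100 family. The mature 5p arms are given with the seed (bases 2 to 8) in capitals.
mmu-let-7c-5p: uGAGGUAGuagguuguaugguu
mmu-miR-99a-5p: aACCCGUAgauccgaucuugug
The 2 microRNAs differ in seed. The region had a fold enrichment of 4.43, 5.27 and 4.68 in the distal and 4.17, 5.07 and 5.05 in the niche libraries, and the length under its peak was 277, 231 and 293 bp in distal and 699, 348 and 548 bp in niche libraries. The fold enrichment overlapped between sites and the length did not, although the length difference did not pass (log2 difference 0.87 ± 0.29 SE after centring, limma adjusted p = 0.573). The nearest CT26 peak lay 27175 bp away.

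The 4T1-only regions were mostly weak entries of the 4T1 lists. Peaks were ranked within each list by the deposited -log10 p, with the strongest at the 100th percentile. The median 4T1-only region lay at percentile 16.4, 17.5 and 14.6 in the distal libraries and at 25.1, 25.1 and 25.6 in the niche libraries. By the lowest of its 6 percentiles, 159 of the 250 lay under the 10th, 30 lay at or above the 25th, and 3 lay at or above the 50th. The median fold enrichment of the regions was 3.31, 3.54 and 3.52 in the distal and 3.61, 3.66 and 3.61 in the niche libraries, against 4.65, 4.71, 4.76, 4.45, 4.39 and 4.46 over all peaks of the same lists. Their width ran from 249 to 3331 bp with a median of 597 bp.

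**Figure D1:**
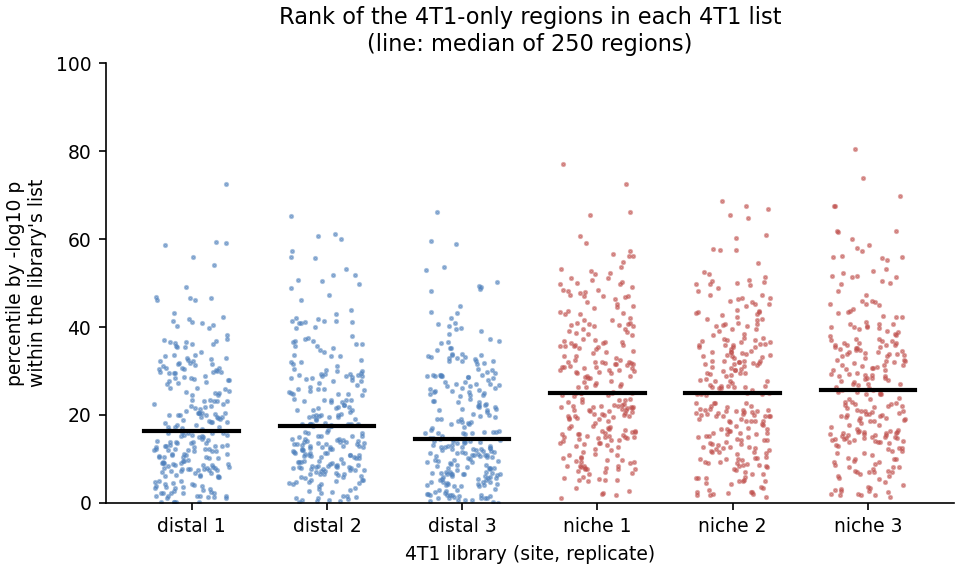
Each point is a 4T1-only region, and the vertical axis gives its percentile by -log10 p within the list of a 4T1 library (distal in blue, niche in red, black line at the median of 250 regions). The medians lie at 14.6 to 17.5 in distal and 25.1 to 25.6 in niche libraries, and few points pass the 50th percentile.

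The 3 regions that stood in the upper part of all 6 lists lay beside Ubash3b, inside Mbnl1 and on chromosome 12, far from any named protein-coding gene. Ubash3b encodes a phosphatase that damps receptor tyrosine kinase and antigen receptor signals. The region (chromosome 9, 41163306 to 41163889) lay 1614 bp outside Ubash3b and inside the long non-coding gene Gm35657, with a fold enrichment of 6.30, 7.13 and 6.73 in distal and 6.09, 6.36 and 6.51 in niche libraries. Its percentiles ran from 55.9 to 61.8, so it was of much the same height in every 4T1 library, and the nearest CT26 peak lay 5330 bp away. Mbnl1 is an RNA-binding regulator of splicing, and its region (chromosome 3, 60597034 to 60597436) had 6.72, 5.29 and 4.93 in distal and 5.60, 4.77 and 7.14 in niche libraries. Here the spread within each site was larger than the difference between sites. The chromosome 12 region (68836124 to 68836480), 321242 bp from Rps29, had 6.37, 6.00 and 7.52 in distal and 6.06, 5.99 and 5.57 in niche libraries. CT26 peaks came nearer to these 2 regions, to 1844 bp at Mbnl1 and 1637 bp on chromosome 12.

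Among the next 12 regions by rank were loci of a BMP signal transducer and of adhesion G protein-coupled receptors. Smad5 transmits BMP receptor signals to the nucleus, and the region inside it (chromosome 13, 56720624 to 56721136) had a fold enrichment of 4.95, 5.67 and 6.99 in distal and 4.72, 5.15 and 5.88 in niche libraries, with no CT26 peak within 16176 bp. Adgrf5 (also known as GPR116) is a receptor of AT2 cells that limits the surfactant pool. The region inside Adgrf5 (chromosome 17, 43393162 to 43393454) was narrow, with 178 to 272 bp under peaks, and had 3.39, 3.00 and 3.58 in distal and 3.42, 2.84 and 3.37 in niche libraries. Within 50 kb of it lay 13 other regions, and all 12 libraries shared 5 of these. The CT26 peak nearest to the Adgrf5 region lay 2167 bp away. Adgrd1, another adhesion receptor gene, held a region (chromosome 5, 129152501 to 129152829) with 5.47, 4.92 and 4.59 in distal and 7.02, 6.38 and 6.58 in niche libraries. At Adgrd1 every niche value lay above every distal value, but the difference did not pass (log2 difference 0.46 ± 0.09 SE, limma adjusted p = 0.11).

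Other regions of this rank lay inside Ldlrad3, a receptor-like gene of the LDL receptor family, near the tropomyosin gene Tpm4, near Wee1, a kinase that holds back entry into mitosis, and inside the centrosomal gene Cep57l1. At Ldlrad3 (chromosome 2, 102082828 to 102083439) the order of the sites was the opposite of that at Adgrd1, with 6.90, 7.64 and 6.26 in distal and 5.39, 4.40 and 4.66 in niche libraries (log2 difference -0.48 ± 0.10 SE, limma adjusted p = 0.129). Wee1 (chromosome 7, 110116645 to 110117206) stood high in rank with a low fold enrichment of 2.22 to 2.65. The nearest CT26 peaks lay 1933, 2100 and 1377 bp from the Ldlrad3, Tpm4 and Wee1 regions. The remaining regions named by rank lay nearest to Ssxb5, Pid1, Entpd3 (an enzyme that breaks down extracellular nucleotides) and Ywhae (a 14-3-3 adaptor protein). Their fold enrichments were 5.29 to 7.19, 4.36 to 5.85, 4.19 to 6.63 and 3.44 to 4.00.

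**Figure D2:**
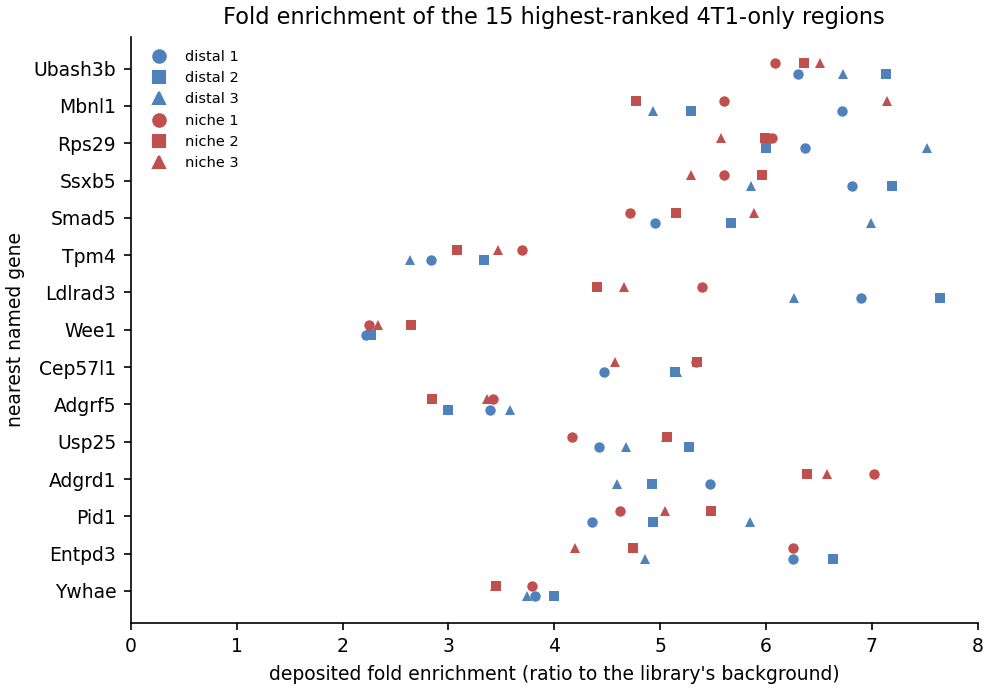
The horizontal axis gives the deposited fold enrichment, a ratio to the background of the same library, for the 15 highest-ranked 4T1-only regions, named by the nearest gene (distal libraries in blue, niche in red, marker shape for the replicate). Niche and distal points are separate at Adgrd1 (niche higher) and Ldlrad3 (distal higher), and Wee1 has the lowest values, at 2.22 to 2.65.

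The regions lay inside genes more often than at gene ends. Of the 250, 169 (67.6%) lay inside a protein-coding gene and over 1 kb from its ends, 68 (27.2%) lay between genes, and 13 (5.20%) overlapped or lay near a gene end (at most 1 kb from it). A gene end here is either end of the gene, 5′ or 3′. Of the 35222 regions held by all 12 libraries, 39.7% lay inside genes, 27.1% between genes and 33.2% at gene ends. Within 1 kb of an annotated start site lay 7 of the 250 (2.8%) and 30.8% of the 35222. Regions on chromosome 18, where no start sites were used, count here as having none. The start sites used have a gap elsewhere too. The Hmbox1 region on chromosome 14 lay inside a gene of 138.3 kb, yet its nearest start site was 1.81e+06 bp away. Both shares near start sites can thus be too low. The 580 regions held by all 6 4T1 libraries and exactly 1 CT26 library had 64.1%, 30.2% and 5.69%. Along the number of CT26 libraries that held a region, the share at gene ends went from 5.20% (none) to 10.1% (5 libraries) before the step to 33.2% at 6. The median percentile in the 4T1 lists went from 19.9 at none to 37.6 at 5 and 70.7 at 6 over the same classes. Location and rank thus moved together across these classes, and the part of rank in the difference in location was not tested. The annotation used gives no exons, so exon and intron were not told apart.

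**Figure D3:**
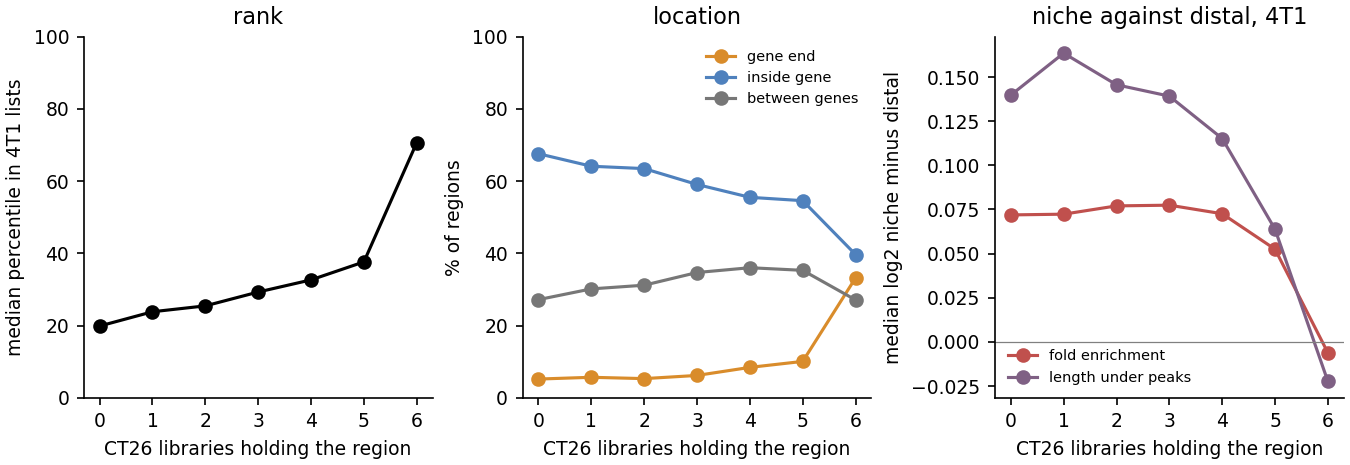
All panels cover the 46053 regions held by all 6 4T1 libraries, split by the number of CT26 libraries (0 to 6) that hold them: the median percentile in the 4T1 lists, the share of regions by location in percent, and the median log2 difference of niche minus distal within 4T1. The 4T1-only regions (0) continue the run of the classes 1 to 5, and the class of 6 stands apart with a median percentile of 70.7 and 33.2% at gene ends.

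The 13 regions at gene ends were those of Ywhae, Ubqln4, Myadm, Cavin1, Golga5, Klf2, Btg2, Hspa1b, Arhgef6, Pmvk, Retnla, Psca and Dnaja1. At Golga5, a gene of a Golgi coiled-coil protein, the fold enrichment was 3.19, 4.22 and 3.19 in distal and 4.40, 3.49 and 4.34 in niche libraries. Pmvk, an enzyme of the mevalonate pathway, held the widest region (3331 bp) with 2.75, 2.86 and 3.98 against 2.94, 3.62 and 3.21, and Myadm had 2.58 to 3.08. The sites overlapped at all 3. Klf2, a zinc finger transcription factor best known from endothelium and lymphocytes, had a region 833 bp outside the gene (chromosome 8, 72322487 to 72323427) with a fold enrichment of 1.70, 1.88 and 2.02 in distal and 2.12, 2.00 and 1.96 in niche libraries. At Btg2, an antiproliferative gene induced by p53, the values were 1.79, 1.67 and 1.86 in distal and 2.10, 1.90 and 1.97 in niche libraries. Hspa1b, a heat-inducible Hsp70 gene, had 1.81, 1.85 and 1.85 against 1.75, 1.96 and 2.11, and Dnaja1, a co-chaperone of Hsp70 named after its values were seen, had 2.26 to 2.80. Klf2, Btg2 and Hspa1b were among the 7 of 250 regions with a median under 2. The nearest annotated start sites lay 3425, 3994 and 2437 bp from the Klf2, Btg2 and Hspa1b regions, whereas the Arhgef6 region covered a start. They lay 33087, 14994 and 7237 bp from the Ywhae, Ubqln4 and Myadm regions. From the Cavin1, Golga5 and Pmvk regions they lay 12977, 28821 and 8695 bp away. The Hspa1b and Dnaja1 regions were wide (1655 and 2962 bp), and Hspa1b has a near-identical neighbour gene, so its reads may be hard to place.

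Few genes of the pathway and cell type lists had a 4T1-only region. A locus was taken as the gene and 10 kb on each side, and 227 of 21631 protein-coding loci (1.05%) overlapped a 4T1-only region. Among 376 genes on 26 lists, 5 did (1.33%), a share near that of all genes. They were Tsc22d3, a glucocorticoid-induced leucine zipper gene, Jak1, a kinase of cytokine receptors, Cdk6, a kinase of the G1 phase, Klf2, and the intestinal mucin gene Muc2. The lists of AT2, alveolar type I, transitional alveolar, airway, neutrophil, macrophage and monocyte, lymphoid, endothelial, fibroblast and mammary genes had none. Nor had the interferon response, NF-kB, circadian clock, AP-1, TGF-beta and EMT, Wnt, YAP and TEAD, EGF and FGF, hypoxia, lipid synthesis and MHC class II lists. Reading each region by its nearest gene instead, 12 of 250 (4.80%) had a list gene nearest, against 3.43% of the 46053 regions. Besides 5 named above these were Wnt4 (16726 bp away), Zbtb16 (23997 bp), Hif1a (24517 bp), Lef1 (91839 bp), Insig1 (94338 bp), Tgfbr2 (177544 bp) and Ptprc (474118 bp), a reading added after the values were seen.

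At Tsc22d3 (chromosome X, 140580434 to 140581361) the fold enrichment was 3.23, 5.23 and 3.55 in distal and 3.29, 4.28 and 3.13 in niche libraries, and replicate 2 was the highest at either site. The Jak1 region (chromosome 4, 101252778 to 101253450) had 4.15, 4.08 and 2.86 in distal and 2.97, 3.32 and 3.61 in niche libraries, and the sites overlapped. The Cdk6 region (chromosome 5, 3380646 to 3382359) had 3.36, 3.33 and 3.28 in distal and 2.95, 3.89 and 3.58 in niche libraries. Each of these genes kept other open regions in CT26: all 12 libraries shared 6 of 10 regions at the Tsc22d3 locus, 6 of 14 at Jak1, 6 of 15 at Cdk6 and 2 of 5 at Klf2. At Muc2 none of 2 was. A region 2904 bp from Gbp8, a guanylate-binding protein gene that is on none of the lists and was named after its values were seen (chromosome 5, 105056513 to 105056817), had 3.35, 3.54 and 4.34 in distal and 4.29, 3.84 and 4.35 in niche libraries.

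Within 4T1, a single 4T1-only region passed a test of niche against distal AT2 cells, and only in length. The rule does not use the direction of this difference, but it asks for a called peak in each of the 6 libraries compared, and the distal lists decided membership more often (138, 107 and 168 regions lacked only a distal peak, 27, 66 and 45 only a niche peak). The comparison is therefore not independent of the rule and is given as a description of regions so chosen. Fold enrichment was compared on the log2 scale after centring each library on its median over the regions held by all 12 libraries, with limma over all 46053 regions. None of the 250 regions passed at an adjusted p under 0.05 (48, or 19.2%, at an unadjusted p under 0.05, against 5200, or 11.3%, of all 46053), beside 0.0130% of all regions called higher and 0.00% called lower in the niche. With length under peaks in place of fold enrichment, 1 of 250 passed (29, or 11.6%, at an unadjusted p under 0.05, against 7.83% of all), beside 0.0955% of all regions called higher and 0.0130% called lower. That region lay inside Uggt1 (chromosome 1, 36234940 to 36236174), which encodes a folding sensor for glycoproteins in the endoplasmic reticulum. Its length under peaks was 272, 313 and 385 bp in distal and 1119, 1030 and 1115 bp in niche libraries, with no overlap (log2 difference 1.70 ± 0.17 SE, limma adjusted p = 0.0479). The Uggt1 call was lost with quantile normalization (limma adjusted p = 0.0752) and with the replicate number as a block (limma adjusted p = 0.346). It was also lost without any 1 of distal replicates 1 and 2 or niche replicates 1, 2 and 3 (limma adjusted p = 0.0706, 0.0882, 0.154, 0.126 and 0.154). A region near Spsb1, an adaptor of ubiquitin ligases, came close in length (195, 214 and 195 bp in distal, 465, 546 and 488 bp in niche, limma adjusted p = 0.057), and is named here after its values were seen.

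The small shift that was present ran towards the niche and was of the size seen in regions held by 1 to 4 CT26 libraries. The median log2 difference of the 4T1-only regions, niche minus distal, was 0.07 in fold enrichment (166 of 250 positive) and 0.14 in length (164 of 250 positive), with medians of 0.01 and -0.01 over all 46053 regions. Regions held by 1 to 4 CT26 libraries had medians of 0.07 to 0.08 in fold enrichment and 0.12 to 0.16 in length, and those held by 5 had 0.05 and 0.06. The median of the 4T1-only regions in fold enrichment was 0.03 with no centring, 0.04 with quantile normalization and 0.04 without distal replicate 1, and in length it was 0.07 with quantile normalization. In fold enrichment the 3 niche libraries lay above the 3 distal libraries in 37 of the 250 regions (14.8%, against 9.15% of all regions) and below them in 11 (4.4%, against 7.18%). In length they lay above in 32 (12.8%, against 6.79%) and below in 7 (2.80%, against 8.45%). Niche lists were longer than distal lists, and the part of list length in this shift was not tested.

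**Figure D4:**
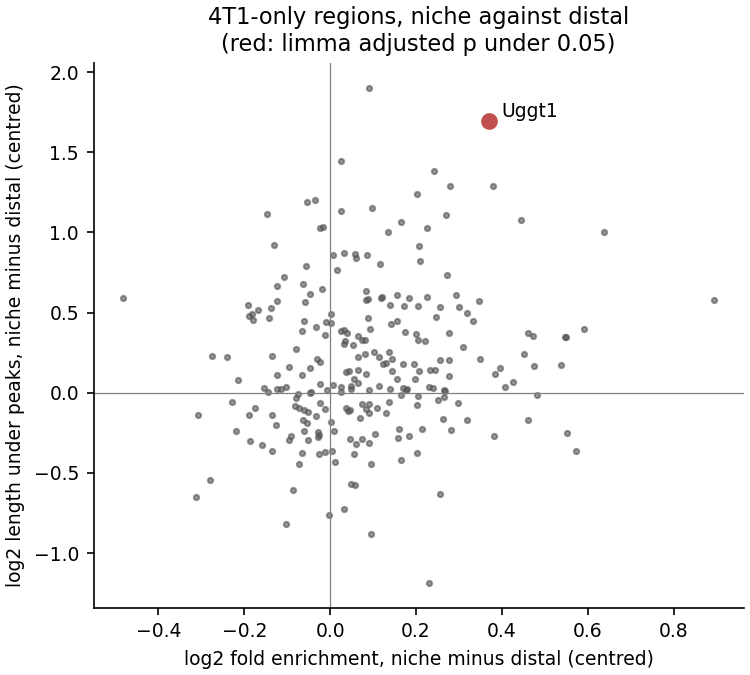
Each point is a 4T1-only region, with the log2 difference of niche minus distal in fold enrichment on the horizontal and in length under peaks on the vertical axis, both centred. Uggt1 (red) is the region that passed, in length, and the other points spread on both sides of 0 with medians of 0.07 and 0.14.

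How many regions a single model held changed with the way peaks were chosen. With all deposited peaks 250 regions were 4T1-only and 2 were CT26-only. With the 42067 highest peaks of each of the 12 libraries by -log10 p, the length of the shortest list, 44 regions were 4T1-only and 18 were CT26-only, and 18 of the 250 regions were among the 44. With the 4T1 lists alone shortened to 49731 peaks, the mean of the CT26 lists, 45 regions of each kind were found. The 18 regions found with equal lists included those of Ubash3b, Mbnl1, Smad5, Tpm4, Wee1, Cep57l1, Adgrd1, Pid1 and, below rank 15, Hmbox1, Chp1, Cobl, Il21r, Dip2b and Fchsd2. Those of Ldlrad3, Adgrf5, Entpd3 and Ywhae, and the region beside Mirlet7c-1, were not among them. The 250 have no peak in the full CT26 lists, so only their -log10 p in the 4T1 lists decided which of them remained. The rest of the 44 were not among the 250. Leaving out a library adds regions by construction, and the count rose most without CT26 niche replicate 1 (491), the longest CT26 list, and without 4T1 distal replicates 3 (418) and 1 (390).

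**Figure D5:**
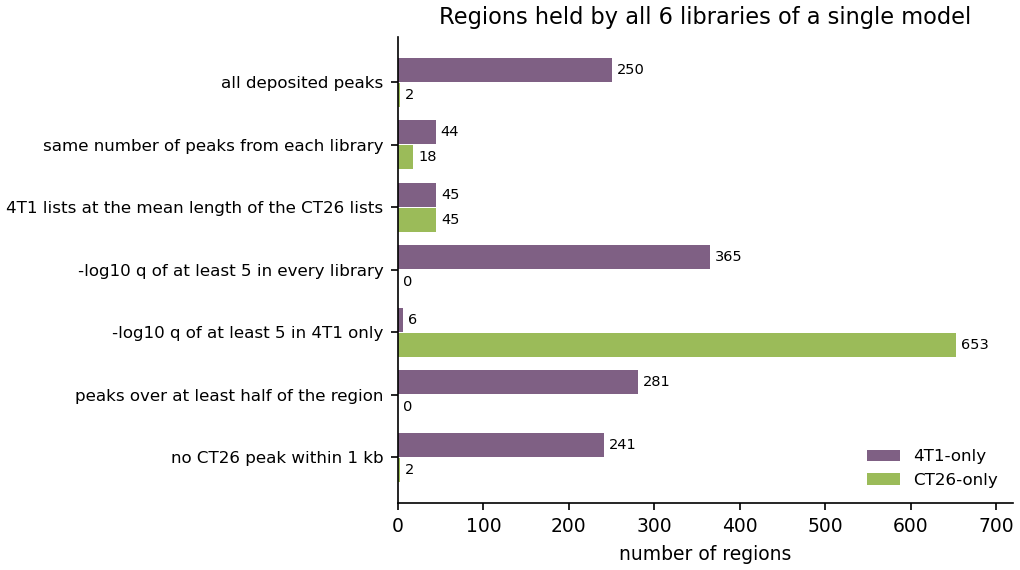
Bars give the number of 4T1-only and CT26-only regions under different ways of choosing peaks. The 250 against 2 of the deposited lists became 44 against 18 with equal lists and 45 against 45 with 4T1 lists of the mean CT26 length. The counts were 365 against 0 with a -log10 q of at least 5 in every library.

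The rule has no cut-off beyond the peak calls themselves. Just inside it, the regions with the lowest percentile in any 4T1 list lay inside Farp1, Helz, Snx29, Rcan2 and Ash1l, at lowest percentiles of 0.0355, 0.149, 0.276, 0.303 and 0.303. Just outside it, the highest-ranked regions held by all 6 4T1 libraries and 1 CT26 library lay inside Cdc14a, Map4, Eif4g3 and Cdk17 and 51267 bp from Ntmt1, at lowest 4T1 percentiles of 58.7, 53.0, 52.8, 51.9 and 52.1. In the 1 CT26 library that held them they lay at percentiles of 63.1, 23.3, 39.4, 47.1 and 43.0, and the Cdc14a region was thus in the upper part of that list. Of the 580 such regions, CT26 niche replicate 1 held 241 and the other CT26 libraries 33 to 83 each. A further 551 regions were held by 5 of the 6 4T1 libraries and by no CT26 library, and distal replicates 1, 2 and 3 lacked 138, 107 and 168 of these.

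By the rule no 4T1-only region overlapped a CT26 peak, and most lay in neighbourhoods open in both models. The distances and neighbour counts below were not taken for other regions, so they are not shown to be particular to these. The nearest CT26 peak lay at a median of 5867 bp, within 1 kb for 9 regions and over 10 kb away for 73. Within 50 kb on each side a region had a median of 9 other regions, with a median of 3 shared by all 12 libraries, and 10 of the 250 had no region there that any CT26 library held. All 20 chromosomes had 4T1-only regions, from 2.95 per 1000 regions held by all 6 4T1 libraries on chromosome 8 to 8.43 on chromosome 12, with 5.24 on X. The 9 regions on chromosome 18, where sequence was not analysed here, were left out of the 241 set against start sites; they were counted and are not named.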

How the data were processed

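Per the labels' protocols, nuclei of 50000 sorted AT2 cells per sample were treated with Tn5 and sequenced, with a read number per sample named only as a round figure. The authors deposited a broad peak list per library, in GRCm38 coordinates, and MACS2 and bedtools stand in the submitters' processing notes with no version. Aligner, filters and cut-off: not given in the sources used here. Used were the deposited start and end (bp), fold enrichment (a ratio to the background of the same library), and -log10 p and -log10 q from the authors' peak caller.

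The members and gene lists were chosen with earlier results of these data known. Named regions, with the nearest protein-coding gene (no Gm, Rik or LOC models), are the 15 ranked first by their lowest percentile in the 6 4T1 lists, the 10 ranked first at gene ends, those at listed genes, those that passed a test, the 10 ranked first among those found with equal lists, and 5 on each side of the rule. A rule for loci with at least 3 members named none. Outside these rules, and after their values were seen, Rab17, Dlg1 (for their promoter windows), Retnla, Psca, Dnaja1, Gbp8, Spsb1 and the other regions found with equal lists were named.

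Genes, promoters and microRNAs came from RefSeq tables of GRCm38.p6. Niche and distal 4T1 libraries were compared with limma 3.58.1 in R 4.3.3 (eBayes with trend, Benjamini-Hochberg over 46053 regions, threshold 0.05), tested on simulated data beforehand. A fold enrichment is the highest peak of the region, and no pseudocount was added. Niche and distal samples were taken as unpaired. The sample titles give replicate numbers and do not say whether same-numbered samples came from the same lungs. Deviations of same-numbered niche and distal libraries correlated at 0.06 to 0.08 in fold enrichment and 0.02 to 0.04 in length. Deviations from means of 3 samples cannot settle whether the samples were paired. No genome sequence was used here, so motifs were not searched in the regions themselves. Peaks were read in Python 3.11.15.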

Additional observations from a re-analysis of the deposited data

How the results depend on the processing

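The count of 250 4T1-only regions became 44 with the same number of peaks from each library, 45 with 4T1 lists of the mean CT26 length, 6 with a -log10 q of at least 5 asked of 4T1 peaks only, and 277 to 491 without each library in turn. It stayed within 1.5 times with a -log10 q of at least 5 in every library (365, of which 6 of the 250), with peaks over at least 0.5 of the region (281, of which 85), with no CT26 peak within 1 kb (241) and with peaks up to 200 bp apart merged (250). The CT26-only count ran from 0 to 653 over these settings, and the 653 came from a cut-off on the 4T1 lists alone. Over all regions, the 6 niche calls in fold enrichment became 0 with a -log10 q of at least 5, 2408 with regions held by at least 3 of the 6 libraries (a missing peak set to the lowest value of its library), 777 with -log10 p in place of fold enrichment, and 0 without each library in turn. The 50 calls in length became 31, 883 and, with no centring, 96, and 0 to 84 without each library. With the replicate number as a block, no region was called in fold enrichment (0; 5499 at an unadjusted p under 0.05) or length (0; 3336), and the Uggt1 region had a limma adjusted p of 0.346. Of the 250 regions, 4 passed with -log10 p, 1 with the wider set of regions in fold enrichment and 2 in length. Their median shift in fold enrichment turned to -0.0718 with a -log10 q of at least 5, on the 6 regions left. The cause of these changes was not tested.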

Other observations

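A few genes held more than 1 of the 4T1-only regions, named here after their values were seen. Arid1a (a subunit of the SWI/SNF chromatin remodelling complex), Dlg1, Gnaq (a G protein alpha subunit), Iqsec1 (an exchange factor for Arf proteins), Nfib (a transcription factor of lung development), Ror1 (a Wnt5a receptor) and Znrf3 (a ubiquitin ligase that removes Wnt receptors) had 2 each, and no locus had 3. Arid1a, Dlg1 and Nfib are 77.8, 209.9 and 216.6 kb long. The 178 regions that overlapped a protein-coding gene lay in genes of a median 87.4 kb, against 17.3 kb over all protein-coding genes. The first median was taken over regions, which fall more often in long genes, and the second over genes. Gene length was not taken for other open regions, so the gap is not shown to be particular to the 4T1-only regions. The part of gene length in these pairs was not tested. The Nfib regions lay on chromosome 4 at 82387554 to 82387966 and 82412009 to 82412538, and the first had a fold enrichment of 3.03, 3.95 and 3.16 in distal and 3.24, 2.68 and 3.32 in niche libraries. Of the 250 regions, 8 pairs of neighbours lay within 100 kb of each other.

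Some regions lay far from any CT26 peak. The farthest (chromosome 12, 65619901 to 65620242) lay 439610 bp from the nearest, with no other region within 50 kb and a fold enrichment of 4.24, 6.35 and 5.17 in distal and 5.57, 5.24 and 6.15 in niche libraries. It was among the 18 found with equal lists. Regions inside Cep112, Marchf11 and Ppargc1a, a coactivator of mitochondrial genes, lay 101672, 94754 and 57437 bp from the nearest CT26 peak. The 2 CT26-only regions lay inside Nphp4 (chromosome 4, 152484031 to 152484742) and 169990 bp from Slc16a14 (chromosome 1, 85105271 to 85106302), at percentiles of 2.60 to 28.2 and 0.686 to 35.01 in the CT26 lists.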
